A study of Mus musculus with 8 samples.

Results

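The genes described here are those of the T cell receptor signalling unit at the membrane of a CD8 T cell: the CD3 chains Cd3d, Cd3e, Cd3g and Cd247, the coreceptor chains Cd8a and Cd8b1, the kinases Lck and Zap70, the adaptor Lat and the phosphatase Ptprc. They were chosen by symbol, without use of their values, and are 10 of the 22609 genes counted. RNA came from CD8 T cells sorted out of the livers of male C57BL/6J mice aged 6 weeks that had received an agonist antibody to CD137, a costimulatory receptor, on days 0, 3 and 6 and whose livers were taken on day 8. All cells were KLRG1+ and CD127-, as short-lived effector cells are, and came through a gate for live CD45+ TCRβ+ CD8α+ cells without MHC class II, NK1.1 or CD4. Surface CD11c parted them into CD11c+ and CD11c- subsets, with 4 libraries of each. Both subsets come from treated mice, and no untreated mice are among these samples. Libraries are numbered 1 to 4 within a subset, and the labels do not tie them to separate mice; the p-values below therefore rest on the variation among these libraries, part or all of which may be technical.

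The T cell receptor has no signalling tail of its own. Its signal passes through the paired CD3 chains and the zeta dimer (Cd247), whose tyrosines are phosphorylated by LCK, a kinase held by the tail of CD8α. ZAP70 then docks on the phosphorylated chains and phosphorylates LAT, on which the downstream complexes assemble, while the phosphatase CD45 (Ptprc) sets how much LCK is active. As the gate selected on CD8α and CD45 proteins, the presence of Cd8a and Ptprc transcripts in both subsets follows from the sort. Its selection on TCRβ also bears on the CD3 chains that carry the receptor's signal. CD8β, LCK, ZAP70 and LAT were not selected on.

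Libraries held 5090345 to 7093163 gene reads, of which 1.196% to 1.351% fell on the 10 genes. Itgax, which encodes CD11c, was at 198 to 357 CPM (counts scaled to a common number of gene reads per library, with TMM normalization factors) in CD11c+ libraries and at 4.76 to 18.0 in CD11c- libraries, so every library matched its label. Of the genes for proteins the gate shut out, Cd4 reached at most 1.56 CPM and Klrb1c (NK1.1) at most 8.99. Of other CD4 T cell markers, Foxp3 was at 3.71 to 10.5 CPM in CD11c+ and 1.86 to 15.3 in CD11c- libraries. Zbtb7b reached at most 7.48 CPM and Cd40lg at most 0.700. The MHC class II genes H2-Ab1 (28.7 to 69.7 CPM in CD11c+ and 8.09 to 38.6 in CD11c- libraries) and Cd74 (44.2 to 111.5 and 24.7 to 61.8) were present in every library, with overlapping ranges. Of dendritic cell genes besides Itgax, Xcr1 was at 1.25 to 4.69 and 0 to 1.505 CPM. Cd209a was at 0 to 4.36 and 0 CPM, and Flt3 at 0 to 4.99 and 0. Zbtb46 was at 0 to 3.59 and 0 to 2.80 CPM, with the higher mean in CD11c- libraries. Clec9a reached at most 0.779 CPM and Siglech at most 1.09. Among transcripts of other cells, those of monocytes and Kupffer cells summed to 93.9 to 363 CPM in CD11c+ and 94.7 to 201 in CD11c- libraries (all 7 list members counted, Lyz2 foremost), and those of neutrophils to 2.27 to 281 and 7.003 to 110.0, with CD11c+ replicate 3 the highest library for both. NK cell and ILC1 markers summed to 191.9 to 310.2 and 176.2 to 210.1 CPM, mostly from Eomes, which T cells also express; of the others Tyrobp reached 55.2 and Ncr1 at most 1.78. B and plasma cell markers summed to 9.58 to 14.79 and 8.264 to 14.45 CPM, with Cd79b in every library and Ms4a1 at most at 1.78, and Clec4f of Kupffer cells reached at most 1.40. The part of these transcripts in the results below was not tested.

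None of the 10 genes differed between CD11c+ and CD11c- cells past the test. All 10 passed the filter on low counts, and 0 of 10 passed edgeR's quasi-likelihood test at an adjusted p of 0.05, where 5 of 10073 tested genes (0.0496%) did. An unadjusted p under 0.05 was reached by 0 of 10, against 473 tested genes (4.7%), and in 0 of 10 did the 4 libraries of one subset lie clear of the other 4, against 347 tested genes (3.44%). DESeq2 and limma voom also called 0 of 10, with unadjusted p under 0.05 for 0 and 1 (Cd3g) of them. Fold changes were positive for 4 and negative for 6, with a median log2 fold change of -0.02 against 0.01 over all tested genes. Over all tested genes 5207 were positive and 4866 negative. Over the 192 tested genes with a mean level between the lowest and highest of these 10, themselves included, 74 were positive and 118 negative. The 95% intervals of all 10 fold changes held 1 and lay within 1.5-fold in either direction, running from 0.704-fold at the lowest bound (Cd3d) to 1.39-fold at the highest (Cd8b1). A smaller difference is not excluded by these intervals. In bulk RNA, fewer cells with a transcript and less of it per cell cannot be told apart.

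**Figure D1:**
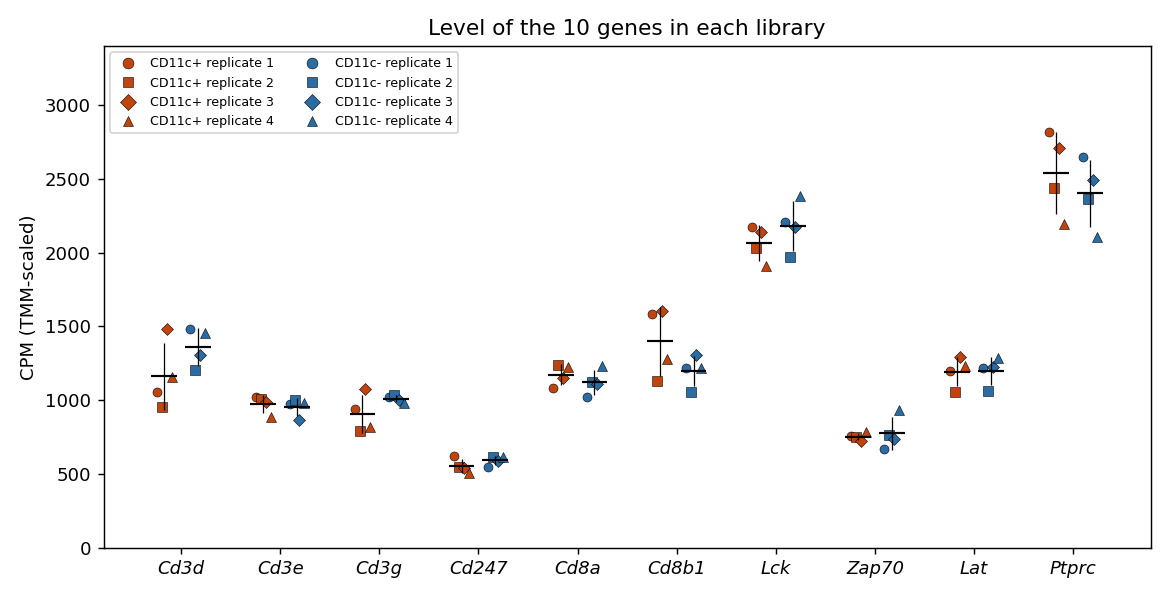
CPM of each gene (y axis, linear from 0) in every library, with CD11c+ libraries in orange and CD11c- libraries in blue, the marker shape giving the replicate number, horizontal bars the mean and vertical bars the SD of 4 libraries. The subsets overlap for every gene, and Ptprc has the widest range in CPM (2104 to 2815), while Cd3d (956 to 1481) and Cd8b1 (1058 to 1601) spread most relative to their mean, with CVs (SD as a share of the mean) of 15.98% and 15.2%.

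**Figure D2:**
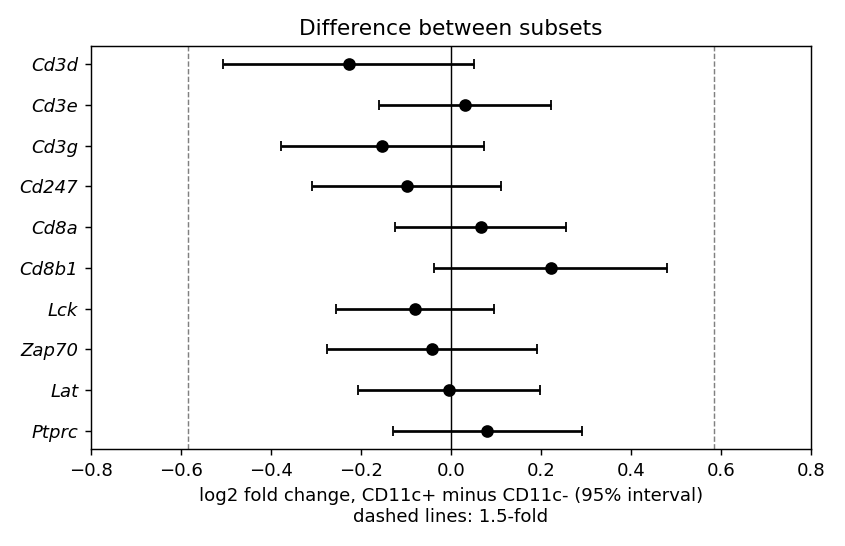
Log2 fold change of each gene, CD11c+ minus CD11c-, from edgeR's quasi-likelihood fit, with its 95% interval; dashed lines mark 1.5-fold. All 10 intervals cross 0 and stay inside the dashed lines.

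Cd3d encodes the delta chain, which pairs with CD3 epsilon. It was at 1056, 956, 1480 and 1158 CPM in CD11c+ replicates 1 to 4 and at 1481, 1203, 1308 and 1451 CPM in CD11c- replicates 1 to 4. Of the CD11c+ libraries only replicate 3 reached the highest CD11c- levels, and replicates 1, 2 and 4 lay below all CD11c- libraries. Its log2 fold change was -0.23 (SE 0.13, adjusted p = 0.991 by edgeR). Without CD11c+ replicate 3, the library richest in neutrophil and monocyte transcripts, it was -0.37, with an unadjusted p of 0.00437 and an adjusted p of 0.734 by edgeR; the part of those cells in this difference was not tested. Without CD11c+ replicate 2 it was -0.15, with an unadjusted p of 0.246 by edgeR.

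Cd3g encodes the gamma chain, which pairs with another CD3 epsilon. It was at 942, 790, 1074 and 820 CPM in the CD11c+ libraries and at 1021, 1031, 1002 and 978 CPM in the CD11c- libraries. The CD11c- libraries lay close together, with a coefficient of variation (CV, the SD as a share of the mean) of 2.34%, while CD11c+ libraries spread with a CV of 14.3% to both sides of them. CD11c+ replicates 1, 2 and 4 were below every CD11c- library and replicate 3 above every one, as in no other member. The log2 fold change was -0.15 (SE 0.10, adjusted p = 0.991 by edgeR). Without CD11c+ replicate 3 it was -0.25, with an unadjusted p of 0.0198 and an adjusted p of 0.795 by edgeR. Without CD11c+ replicate 2 it was -0.10, with an unadjusted p of 0.349 and an adjusted p of 0.974 by edgeR. By limma voom on all 8 libraries it was -0.20, with an unadjusted p of 0.0386 and an adjusted p of 0.899.

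Cd3e encodes the epsilon chain, found in both pairs. It was at 1022, 1005, 988 and 888 CPM in CD11c+ and at 974, 1002, 866 and 977 CPM in CD11c- libraries. With a CV of 5.90% over 8 libraries it was the steadiest member, and its highest library was 1.18-fold above its lowest. Its 95% interval of the fold change was 0.895 to 1.17. Cd247, the zeta chain that carries most of the signalling motifs, was at 618, 547, 537 and 508 CPM in CD11c+ and at 548, 617, 590 and 611 CPM in CD11c- libraries. CD11c+ replicate 1 was the highest of all 8 libraries for this gene, so the subsets crossed although the mean was lower in CD11c+ cells (553 ± 46.9 against 592 ± 31.1, SD, n = 4 each).

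Cd3d and Cd3g lie head to head on chromosome 9, with annotated starts 1355 bases apart, and Cd3e lies in the same cluster. Over the 8 libraries, of the other members Cd3d kept its closest ratio to its neighbour Cd3g (SD of the log2 ratio 0.153). Its SD was 0.177 to Lat, on chromosome 7, and 0.27 to Cd3e. From the side of Cd3g the neighbour was not the closest. Cd3g was steadier against Lck, on chromosome 4 (SD 0.144), and as steady against Cd247, on chromosome 1 (SD 0.151). The part of gene position in these ratios was not tested. The 250 bases before each start are shown, from RefSeq on GRCm38.p6, written 5′ to 3′ on the gene's strand, with motif matches in capitals. The windows are chr9:44981536-44981785 (plus strand) for Cd3d, chr9:44980432-44980681 (minus strand) for Cd3g and chr9:45009612-45009861 (minus strand) for Cd3e.
Cd3d: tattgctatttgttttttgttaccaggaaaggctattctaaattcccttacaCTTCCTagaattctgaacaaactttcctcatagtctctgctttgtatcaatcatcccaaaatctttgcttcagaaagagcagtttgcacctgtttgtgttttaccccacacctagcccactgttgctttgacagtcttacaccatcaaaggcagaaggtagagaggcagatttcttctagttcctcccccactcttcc
Cd3g: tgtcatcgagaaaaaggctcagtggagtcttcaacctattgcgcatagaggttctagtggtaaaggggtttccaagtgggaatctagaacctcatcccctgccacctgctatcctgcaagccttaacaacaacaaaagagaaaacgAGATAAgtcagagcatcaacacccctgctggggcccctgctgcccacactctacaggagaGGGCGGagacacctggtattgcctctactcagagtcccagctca
Cd3e: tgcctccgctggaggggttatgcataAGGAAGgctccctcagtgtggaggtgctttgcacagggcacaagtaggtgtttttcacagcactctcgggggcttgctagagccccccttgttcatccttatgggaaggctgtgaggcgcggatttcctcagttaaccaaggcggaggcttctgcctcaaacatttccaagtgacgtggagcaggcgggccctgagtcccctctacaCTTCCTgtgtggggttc

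The motifs were searched on both strands, and no motif contains another: AGGAAG for ETS factors (in 29.5% of 32851 windows of this length), TGTGGT for RUNX (14.05%), CAGCTG for E-box factors (13.001%), GGGCGG as GC box (32.7%), TATAAA as TATA box (12.4%) and AGATAA for GATA factors (9.99%). No match overlapped another in these windows. The ETS letters stood once before Cd3d and at 2 places before Cd3e, and a GATA and a GC box match once each before Cd3g. TATAAA was in none of the 3 windows. The window of Cd3d had 41.2% G and C and 0 CpG, that of Cd3g 51.6% and 4, and that of Cd3e 57.2% and 7, where the median window had 52.4% and 6. These matches describe letters and say nothing of what binds there.

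Of the coreceptor, Cd8a encodes the alpha chain, whose tail binds LCK. It was at 1085, 1237, 1150 and 1222 CPM in CD11c+ libraries and at 1022, 1125, 1106 and 1231 CPM in CD11c- libraries. The highest libraries of both subsets were nearly level, and the 95% interval of the fold change was 0.917 to 1.19. Cd8b1 encodes the beta chain, which joins the alpha chain in the heterodimer of conventional CD8 T cells. It was at 1582, 1129, 1601 and 1276 CPM in CD11c+ libraries and at 1215, 1058, 1306 and 1216 CPM in CD11c- libraries. Replicates 1 and 3 of CD11c+ stood above all other libraries, while replicates 2 and 4 lay within the CD11c- range. The log2 fold change of Cd8b1 was 0.22 (SE 0.12, adjusted p = 0.991 by edgeR), the largest positive one of the 10 genes, with an unadjusted p of 0.0868. It was 0.14 without CD11c+ replicate 3 and 0.30 without CD11c+ replicate 2, there with an unadjusted p of 0.0173 and an adjusted p of 0.927 by edgeR.

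As a ratio of reads within a library needs no normalization, the chain ratio was compared directly. Cd8b1 had 1.46, 0.912, 1.39 and 1.04 reads per Cd8a read in CD11c+ replicates 1 to 4 and 1.19, 0.940, 1.18 and 0.987 in CD11c- replicates 1 to 4. In both subsets the libraries numbered 1 and 3 were the higher ones and those numbered 2 and 4 the lower ones. The subset means were 1.202 ± 0.265 and 1.07 ± 0.129 (SD, n = 4 each), a log2 difference of 0.14 (exact permutation test, two-sided, p = 0.429, adjusted over the 7 ratios 0.600). That difference was 0.04 without CD11c+ replicate 1 and 0.27 without CD11c+ replicate 2. Per kilobase of exon (GENCODE M21 lengths, 1483 bases for Cd8b1 and 3132 for Cd8a), Cd8b1 had 2.40 ± 0.433 times the reads of Cd8a (SD, n = 8). This depends on the exon lengths taken, since the gene models behind the counts are not known here.

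The same comparison was made for 7 ratios in all, with 0.0286 the smallest p that 4 against 4 libraries allow. The lowest p was for Cd247:Cd3e, with means of 0.566 ± 0.0290 for the CD11c+ subset and 0.622 ± 0.0484 for the CD11c- subset (SD, n = 4 each, two-sided exact permutation p = 0.0857, adjusted over the 7 ratios 0.400). Cd3g:Cd3e was at 0.930 ± 0.123 and 1.06 ± 0.0689 (exact permutation p = 0.114, adjusted 0.400), and Cd3d:Cd3e at 1.197 ± 0.252 and 1.43 ± 0.153 (exact permutation p = 0.200, adjusted 0.467). For each of these 3 ratios to Cd3e the CD11c+ mean was the lower, and the subsets overlapped; the 3 share Cd3e, so they are not independent of each other. Cd8a:Cd3e, the coreceptor against the receptor, was at 1.21 ± 0.132 and 1.18 ± 0.110 (exact permutation p = 0.743, adjusted 0.743).

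**Figure D3:**
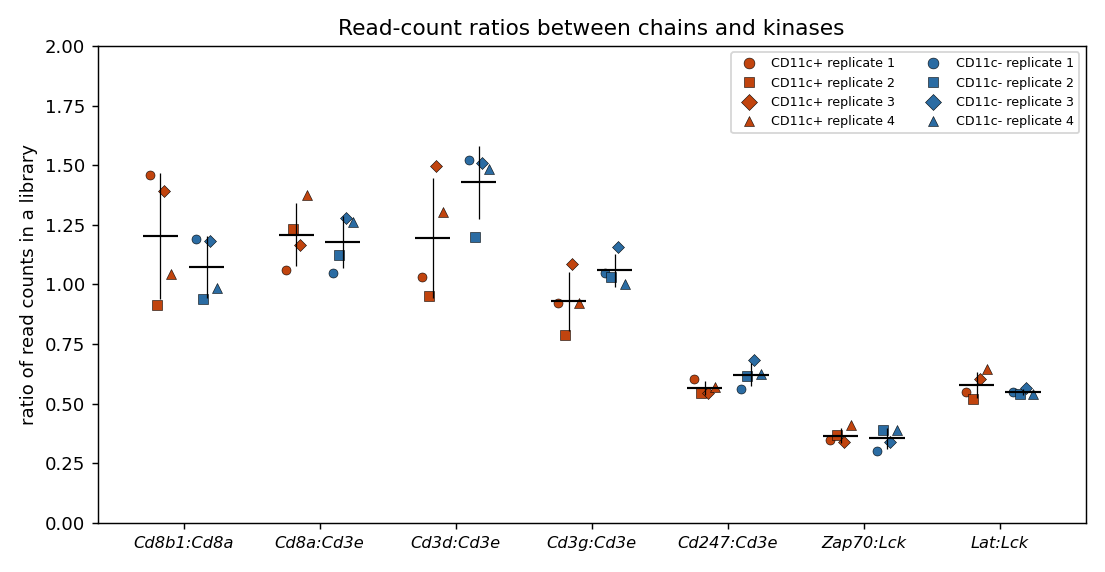
Ratio of read counts (y axis, linear from 0) between 7 pairs of genes in each library, colours, shapes and bars as in the plot of levels. The subsets overlap in all 7 ratios, and Cd8b1:Cd8a and Cd3d:Cd3e spread most, with CVs of 18.0% and 17.5% over 8 libraries.

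Lck, the kinase that starts the signal, was at 2176, 2028, 2141 and 1910 CPM in CD11c+ and at 2207, 1967, 2172 and 2381 CPM in CD11c- libraries. Its lowest library was a CD11c+ and its highest a CD11c- one, with the other 6 between 1967 and 2207. The 95% interval of the fold change was 0.837 to 1.07. Zap70, the kinase recruited to the phosphorylated CD3 chains, was at 759, 749, 722 and 781 CPM in CD11c+ and at 666, 766, 736 and 932 CPM in CD11c- libraries. The CD11c+ libraries agreed to a CV of 3.22%, all of them inside the range of the CD11c- libraries, whose CV was 14.5%. The 95% interval of its fold change was 0.826 to 1.14.

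Zap70 had 0.349, 0.369, 0.337 and 0.409 reads per Lck read in CD11c+ replicates 1 to 4 and 0.302, 0.390, 0.339 and 0.391 in CD11c- replicates 1 to 4. Here the libraries numbered 2 and 4 were the higher ones in both subsets. The means, 0.366 ± 0.0314 and 0.355 ± 0.0433 (SD, n = 4 each), gave an exact permutation p of 0.714 (two-sided, adjusted 0.743). The share of uniquely placed reads outside genes was 63.1% to 67.1% over the libraries and the number of detected genes 10482 to 12581; their part in these ratios was not tested.

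Lat, the adaptor that ZAP70 phosphorylates, had the smallest difference of the 10 genes. It was at 1197, 1055, 1292 and 1231 CPM in CD11c+ and at 1215, 1064, 1227 and 1284 CPM in CD11c- libraries, a log2 fold change of -0.005 with a 95% interval of the fold change of 0.866 to 1.15. Replicate 2 was the lowest library of each subset. Lat:Lck was at 0.579 ± 0.0553 and 0.549 ± 0.0119 (SD, n = 4 each, exact permutation p = 0.371, adjusted 0.600). Ptprc, which encodes CD45, was at 2815, 2435, 2708 and 2195 CPM in CD11c+ and at 2646, 2365, 2489 and 2104 CPM in CD11c- libraries. The order of the replicates was the same in both subsets, 1 highest, then 3, 2 and 4, and the 95% interval of the fold change was 0.914 to 1.22. Counts per gene do not part the splice forms of CD45, which differ between naive and effector T cells.

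Set on a scale per kilobase of exon (mean CPM per kb over 8 libraries, GENCODE M21 lengths), the order was Lat (960 ± 72.4), Cd3g (936 ± 99.5), Lck (916 ± 64.7), Cd8b1 (875 ± 133), Cd3d (780 ± 125), Cd3e (660 ± 38.9), Ptprc (482 ± 48.3), Cd8a (366 ± 24.9), Zap70 (340 ± 34.0) and Cd247 (126 ± 9.29, SD, n = 8 each). Each of the first 5 genes overlapped in range with the next one down, as did Cd8a with Zap70. Cd3e lay above Ptprc, Ptprc above Cd8a, and Zap70 above Cd247, in 8 of 8 libraries and without overlap. Cd247 has 6 transcripts in the basic annotation, and with its longest transcript in place of all exons its level was 194 CPM per kb, still the lowest of the 10.

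The members differed in how steady they were. CVs over 8 libraries were 5.90% for Cd3e, 6.80% for Cd8a, 7.07% for Lck, 7.40% for Cd247, 7.54% for Lat, 10.00% for Zap70, 10.02% for Ptprc, 10.6% for Cd3g, 15.2% for Cd8b1 and 15.98% for Cd3d. Read counting alone gives a CV of 0.841% (Ptprc) to 1.75% (Cd247), as each gene had 2954 to 16885 reads in a library. Among the 192 tested genes whose mean level lay between those of Cd247 and Ptprc, a set drawn up after the data were seen and holding these 10 genes, the median CV was 11.2%. Of that set 93.2% varied more than Cd3e and 87.5% more than Cd8a, but 25.0% more than Cd8b1 and 22.4% more than Cd3d. Cd8a and Cd3e were thus among the steadier genes of their level, while Cd8b1 and Cd3d were above the median CV but within the usual spread. The CV of Cd3d was 19.6% in CD11c+ and 9.53% in CD11c- libraries, and that of Cd8b1 16.6% and 8.615%. For Cd3e it was 6.15% and 6.35%, and for Cd8a 6.01% and 7.67%.

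**Figure D4:**
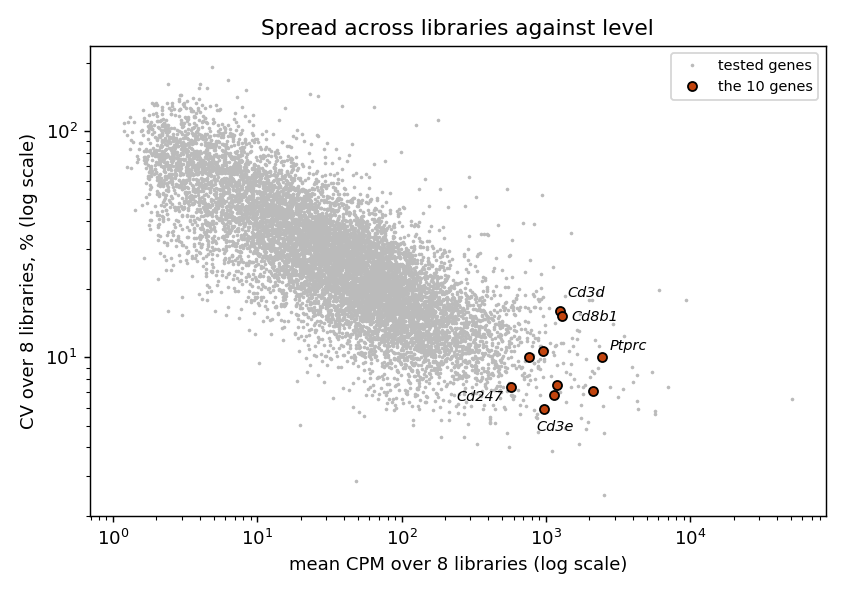
CV over 8 libraries (y axis, percent, log scale) against mean CPM (x axis, log scale) for every tested gene in grey and the 10 genes in orange. Cd3d and Cd8b1 (15.98% and 15.2%) lie above the other 8, of which Cd3e (5.90%) is the lowest.

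Over the 45 pairs of members the SD of the log2 ratio across libraries ran from 0.10 to 0.29, with a median of 0.17. The closest pairs were Lck with Lat and Cd8a with Zap70 (SD 0.10 each), Cd247 with Lck and Cd3e with Cd247 (SD 0.11 each). The 5 widest pairs held Cd3d or Cd8b1, and the widest was Cd3d with Cd8b1. Each ratio rests on the same 8 libraries, and no test was made of these SDs. Among 4145 non-member genes of at least 50 CPM, the steadiest ratios to Cd3e were those of Maea, the cytokine receptor common chain Il2rg and the respiratory chain gene Uqcrc2 (SD 0.06 each), and those to Cd8a were of Actb, Exosc3 (SD 0.05 each) and Sf3b2 (SD 0.06). In all, 82 non-members kept a steadier ratio to Cd3e than its closest member Cd247 did, and 68 a steadier ratio to Cd8a than Zap70 did.

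**Figure D5:**
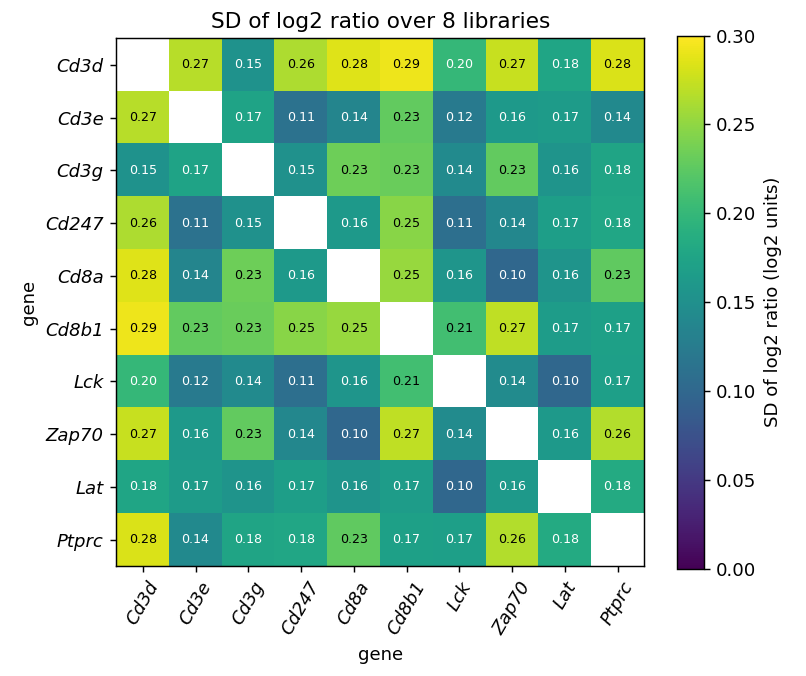
SD over 8 libraries of the log2 ratio between each pair of the 10 genes, given as colour and as a number in log2 units. The row of Cd3d holds the widest pairs (up to 0.29), with its lowest value against Cd3g (0.15), and Lck with Lat and Cd8a with Zap70 are lowest (0.10).

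The wider pathway was read from 6 lists with 71 entries, of which 63 were matched to a counted gene and 59 were tested. Of these 59 genes 0 were called, whether by edgeR, DESeq2 or limma voom. An unadjusted p under 0.05 by edgeR was found for 7 (11.9%, against 4.7% of all tested genes), and in 6 (10.2%, against 3.44%) the subsets did not overlap. Fold changes were positive for 31 and negative for 28. Among the 2233 tested genes of at least 100 CPM, 156 had such a p and 91 did not overlap. Among the 192 tested genes at the level of the members, 21 had such a p and 8 did not overlap. Fold changes of these 192 were positive for 74 and negative for 118, with a median log2 fold change of -0.04. The counts of signs per list below stand beside that lean. The lists were drawn up with earlier results of these data known, so these shares are a description.

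None of the tested partners at the receptor passed the test. The receptor chain genes on this list (Trac, Trbc1, Trbc2, Trdc, Tcra and Tcrb) were not among the counted symbols, so they were not tested. Ptprcap, which binds CD45, was at 1369 ± 127 CPM among CD11c+ and 1539 ± 145 among CD11c- libraries, Cd2, an adhesion receptor, at 902 ± 73.7 and 1041 ± 53.0, and Cd6, a scavenger-type receptor of T cells, at 389 ± 63.9 and 313 ± 41.2 (SD, n = 4 each). Of the 6 tested genes of this list 3 had an unadjusted p under 0.05, with a median log2 fold change of -0.17. Trat1, an adaptor that binds the receptor complex, was among them and was singled out after its values were seen: it was at 39.8 ± 4.97 and 68.2 ± 20.7 CPM, without overlap (log2 fold change -0.78, SE 0.23, adjusted p = 0.854 by edgeR).

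Of 6 other proximal kinases 5 had negative fold changes and 0 an unadjusted p under 0.05 by edgeR. Prkcq (PKC theta) was at 408 ± 60.6 and 456 ± 64.2 CPM and Fyn, the other Src family kinase of T cells, at 197 ± 65.0 and 235 ± 43.4. Of 15 tested adaptors 10 had negative fold changes, with a median of -0.05. Sh2d2a (TSAd, which binds LCK) was at 1463 ± 167 and 1523 ± 124 CPM, Lime1 at 682 ± 92.0 and 815 ± 80.8 and Lcp2 (SLP-76, the partner of LAT) at 547 ± 23.5 and 562 ± 21.5. Rhoh, a GTPase needed for ZAP70 function, was picked out after its values were seen, at 211 ± 11.9 and 253 ± 8.80 CPM without overlap (log2 fold change -0.26, adjusted p = 0.991 by edgeR). The adaptor Grb2, picked out in the same way, lay the other way without overlap, at 48.4 ± 5.80 and 38.2 ± 4.62 CPM (log2 fold change 0.34, adjusted p = 0.991 by edgeR).

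Of 14 effectors downstream of LAT 9 had positive fold changes, with a median of 0.08. Nfatc1 was at 346 ± 68.0 and 335 ± 32.5 CPM, Vav1, an exchange factor for Rac, at 296 ± 34.3 and 284 ± 33.2, and the calcium sensor Stim1 at 225 ± 16.8 and 246 ± 36.3. Orai1, the calcium channel that STIM1 opens, was chosen after its values were seen, at 20.8 ± 8.03 and 35.6 ± 4.53 CPM without overlap (log2 fold change -0.78, adjusted p = 0.990 by edgeR). Of 10 phosphatases, ligases and adaptors that restrain LCK and ZAP70, 7 had positive fold changes, with a median of 0.07. Sla was at 675 ± 74.5 and 660 ± 51.3 CPM, Ptpn22 at 484 ± 89.3 and 510 ± 58.8 and Ubash3a at 338 ± 12.1 and 315 ± 42.4. Ptpn2, a tyrosine phosphatase that acts on LCK, was also chosen after its values were seen, at 146 ± 18.2 and 115 ± 10.4 CPM without overlap (log2 fold change 0.34, unadjusted p = 0.0295, adjusted p = 0.991 by edgeR). The 6 pathway genes without overlap were thus Cd2, Trat1, Rhoh and Orai1, lower in CD11c+ cells, and Grb2 and Ptpn2, higher there.

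The counted counterparts of these proteins in B, NK and myeloid cells were low, while Syk, also listed, was not among the counted symbols. The 11 counted genes of that list summed to 82.7 to 172 CPM in CD11c+ and 97.5 to 133 in CD11c- libraries, highest in CD11c+ replicate 3. Fgr, a myeloid Src family kinase, was at 52.3 ± 20.2 and 64.0 ± 15.5 CPM, Lat2, a LAT-like adaptor, at 21.9 ± 6.65 and 19.6 ± 7.97, and Tyrobp, an adaptor of NK and myeloid receptors, at 24.0 ± 22.4 and 11.4 ± 7.34. Btk and Blnk, of B cell receptor signalling, were under the filter on low counts. CD11c+ replicate 3 had the largest share of reads on the 10 receptor genes, 1.351%, against 1.196% to 1.331% in the other 7 libraries.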

How the data were processed

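Per the labels' protocols, libraries were made by SMART-seq2 with changes, using 10 to 12 preamplification cycles, and read as single reads of 50 bases. The submitters' processing notes name bcl2fastq, TopHat2 2.0.8b, HTSeq and the mouse build mm9. Which annotation and strand setting were used for counting is not given in the sources used here. Raw read counts for 22609 gene symbols were used as deposited, without the HTSeq summary rows; 63.1% to 67.1% of uniquely placed reads fell in no gene. No pair of libraries of a subset differed by sampling noise alone (lowest chi-square per degree of freedom 9.79).

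Counts were filtered (filterByExpr), scaled (TMM) and fitted by glmQLFit and glmQLFTest of edgeR 4.0.16 (R 4.3.3), as CD11c+ minus CD11c-. Adjusted p-values are Benjamini-Hochberg values over the 10073 genes tested. An SE is the log2 fold change over the root of F, and intervals use the fit's degrees of freedom. Ratios of counts were compared by exact permutation in scipy 1.17.1. The steps were tested on simulated data. Alternatives were other factors and filters, DESeq2 1.42.0, limma 3.58.1 (voom), legacy=FALSE, a replicate block and each library left out. The rule for named genes took the 10 genes, the 3 most abundant of each pathway list and any called, and the 3 genes of steadiest ratio to Cd3e and Cd8a. Of the genes this rule takes, 1 is not reported here. Members and lists were chosen with earlier results of these data known. Promoter windows are from RefSeq (GRCm38.p6); 9 of 10 genes matched, Cd8b1 not. Exon lengths are of GENCODE M21, a build other than that of the counts.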

Additional observations from a re-analysis of the deposited data

Results flagged for a closer look

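Among CD11c- libraries the Cd3d:Cd3e ratio of replicate 2 was 1.2005, apart from the other 3, which lay between 1.49 and 1.52. In the CD11c+ subset that ratio ran from 0.951 to 1.499, with replicate 2 the lowest there too. Of 34 groups of 4 values examined by Dixon's Q (10 levels and 7 ratios in each subset) this was the only one so set apart. Chance alone sets apart about 1 in every 20 groups, so 1 of 34 is not more than chance gives.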

How the results depend on the processing

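The count of called members was 0 under all 16 alternatives, with the lowest adjusted p at 0.734 by edgeR. Read counting gives the members CVs of 0.841% to 1.75%, against 5.90% to 15.98% observed. The count of all called genes, 3 higher and 2 lower, became 10 higher with no filter, 6 higher with at least 5 CPM in 4 libraries, 9 higher with legacy=FALSE, 24 higher and 12 lower by DESeq2 and 14 higher and 5 lower by limma voom; leaving out 1 library gave 1 to 4 higher and 0 to 2 lower. The cause was not tested. With the replicate number as a block 11 were higher, and Cd8b1 (log2 fold change 0.21) and Cd3d (-0.24) had unadjusted p of 0.0205 and 0.0433 and adjusted p of 0.797 and 0.805 by edgeR. Deviations of same-numbered libraries correlated at 0.0964, 0.167, 0.119 and 0.190, and 8 of 8 libraries correlated best with their own number, a hint from the data and not the design. Within numbers Cd3d:Cd3e and Cd3g:Cd3e were lower in CD11c+ in 4 of 4 (exact sign-flip permutation p = 0.125, the smallest 4 pairs allow). By limma voom Cd3e turned to -0.0149 and Lat to 0.0420. Leaving out 1 library gave -0.0233 to 0.0651 for Cd3e, -0.0656 to 0.0414 for Lat and -0.117 to 0.0481 for Zap70. The log2 difference of Cd8a:Cd3e ran from -0.0295 to 0.0953 and that of Zap70:Lck from -0.0289 to 0.0963, turning negative without CD11c+ replicate 4 or CD11c- replicate 1. The other 5 ratios kept their sign in all alternatives, Cd3d:Cd3e at -0.39 to -0.17 and Cd3g:Cd3e at -0.27 to -0.12, both closest to 0 without CD11c+ replicate 2; with 1 library out, no p under 0.0571 is possible. Of 160 member fold changes 154 kept direction and side of the threshold, and of 70 ratio values 66 kept direction. For the ratios no change of side was possible, as permutation p could not go under 0.0571 with 1 library out or 0.125 within numbers. Ratios of counts summed over a subset had no p. The median CV of the genes set beside the members was 14.2% over those of at least 100 CPM and 11.2% over those at the members' level, a set chosen after seeing the data.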
